A study of Mus musculus with 8 samples.

Results

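Calcineurin is a calcium-activated serine/threonine phosphatase, and its subunit genes were examined here in mouse aortic smooth muscle cells treated with angiotensin II, with or without the calcineurin inhibitor cyclosporin A. The members were all probes that the array files name as the catalytic subunit genes Ppp3ca, Ppp3cb and Ppp3cc or the regulatory subunit genes Ppp3r1 and Ppp3r2. This gave 14 probes of 5 genes among the 41174 probes of the array, with 2 probes for Ppp3ca, 4 for Ppp3cb, 3 for Ppp3cc, 3 for Ppp3r1 and 2 for Ppp3r2. Of these, 10 probes, at least 1 for every gene, were bright enough to be tested, out of 19494 on the array.

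In the enzyme, a catalytic subunit (calcineurin A) pairs with a small EF-hand regulatory subunit (calcineurin B), and calcium switches the pair on. The phosphatase removes phosphates from NFAT transcription factors, which then enter the nucleus, and in vascular smooth muscle this route is known as one by which angiotensin II changes transcription. Cyclosporin A, bound to a cyclophilin, blocks access of substrates to the enzyme, and Ppp3cc and Ppp3r2 are best known as the forms of the testis.

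The cells were primary vascular smooth muscle cells from the aorta of C57BL/6 mice, with no transgene or deletion named in the labels, grown in medium with fetal bovine serum. Both groups received 1 µM angiotensin II (AngII), and the second group also received 200.0 ng/ml cyclosporin A (AngII+CsA), with 4 arrays in each group and cultures that the labels call independent. The labels give no length of treatment and no age of the animals, and cells without angiotensin II were not analysed here. Total RNA was measured on 8 arrays of 1 colour, and each replicate number put 1 array of either group on a single slide and in a single scan, so culture number, slide and scan cannot be told apart.

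Values are log2 signals minus the 75th percentile of log2 signal on the same array, so 0 is the signal at that percentile. A probe entered the tests where 4 or more of the 8 arrays showed it well above background. Differences are AngII+CsA minus AngII, from limma with Benjamini-Hochberg adjustment over the 19494 probes and a threshold of 0.05, fitted on the groups alone and again with the replicate number as a block. Replicate numbers were treated as pairs, since arrays that share a number departed from their group mean alike (r of 0.70 to 0.86). Arrays of unlike number gave -0.76 to 0.26, which is not separate evidence. Values were centred within each group of 4, so high r for like numbers forces lower r for unlike ones. On each array 42.8% to 51.7% of spots stood well above background and 0 were saturated, and 4 arrays a group set how precise any value can be. Of the smooth muscle marker genes, 6 of 8 were above background on all 8 arrays, Des on 6 and Myocd on 1. Acta2 read 7.53 ± 1.46 in AngII (SD, n = 4). Of the 7 tested, 4 were higher and 3 lower in AngII+CsA. Cnn1 differed most, at 7.29 in AngII and 5.59 in AngII+CsA, lower in 4 of 4 pairs. It did not pass (adjusted p = 0.54 by limma with the block). Linear signals of these 7 summed to 295 to 1414 times the array's 75th percentile in AngII, on 4 arrays. In AngII+CsA the sum was 226 to 1241, on 3 arrays. Of the 6 endothelial markers Tek and Vwf were above background on 7 arrays, Kdr on 4, Pecam1 on 1, and Cdh5 and Tie1 on none. Of the 6 macrophage markers Cd68 and Csf1r were above background on 8 arrays, Lyz2 on 2, Ptprc on 1, and Adgre1 and Itgam on none. Among the 6 fibroblast markers Lum, Pdgfra and Pi16 were above background on 8 arrays, Dcn on 7, Col14a1 on 6 and Dpt on 2. Their means in AngII were 9.04 for Dcn, 5.77 for Pdgfra, 3.43 for Lum, -0.49 for Pi16 and -2.59 for Col14a1. In a linear sum the brightest, Dcn, weighs most. The summed linear signal of the 5 fibroblast markers tested lay between 310 and 1213 times the array's 75th percentile on the 4 AngII arrays and between 352 and 704 on the 3 AngII+CsA arrays where every spot was measured. The sums were 0.337 to 0.539 and 0.324 to 0.357 for the 3 endothelial markers tested, on 4 and 3 arrays, and those of the 2 macrophage markers reached 2.40 in AngII and 2.35 in AngII+CsA, on 4 arrays each. The groups overlapped in each sum, and its part in the results below was not tested. In such bulk RNA, fewer cells of a type and less RNA per cell cannot be told apart.

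Each probe is a stretch of 60 bases, and probes that lie upstream of the 3′ end of their gene differed in whether they gave a signal. The 5 sequences here are such upstream probes, 3 that gave a signal and 2 that did not, and capitals in the first mark the bases that encode a calcium-binding loop of an EF hand, found by a script as the residue pattern of such a loop in the open reading frame (bases 7 to 42 of the probe). The Ppp3r1 probes A_52_P90442 and A_52_P90444 were above background on 8 arrays, Ppp3cb A_51_P412191 on 7, and Ppp3cc A_51_P245412 and Ppp3r2 A_51_P136814 on none. All read 5′ to 3′ from the array files, and each is free of stop codons in at least 1 frame, as 78.3% of the 41174 probes are.
Ppp3r1 A_52_P90442: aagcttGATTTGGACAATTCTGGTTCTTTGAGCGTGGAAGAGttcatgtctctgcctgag
Ppp3r1 A_52_P90444: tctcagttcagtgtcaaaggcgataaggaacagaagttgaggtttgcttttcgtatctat
Ppp3cb A_51_P412191: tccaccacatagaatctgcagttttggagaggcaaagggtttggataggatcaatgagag
Ppp3cc A_51_P245412: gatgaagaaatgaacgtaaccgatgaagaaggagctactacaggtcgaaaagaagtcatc
Ppp3r2 A_51_P136814: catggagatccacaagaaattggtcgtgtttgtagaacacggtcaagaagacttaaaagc

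The longest run of bases shared within any of the 91 pairs of subunit probes was 9. In build mm7, as the files give it, the Ppp3r1 pair lies on the plus strand at chr11:17145007-17145066 and chr11:17146243-17146694, the second spanning 452 bases of genome for its 60, so that its bases are not contiguous there. Ppp3cb A_51_P412191 lies on the minus strand at chr14:18158144-18158203. Ppp3cc A_51_P245412 lies on the minus strand at chr14:64869504-64879654, a span of 10151 bases, and Ppp3r2 A_51_P136814 on the minus strand at chr4:49694975-49695286, a span of 312. An annotation of build mm7 was not used here, so exons and untranslated parts are not stated beyond what the reading frames and spans show.

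In all 5 genes the probe nearest the 3′ end by coordinate was well above background on every array where its spot was measured. All 4 probes that were above background on no array lay upstream of such a probe, and the other 5 upstream probes, of Ppp3cb and Ppp3r1, were tested. Labelling started from a T7 primer, per the labels, and the part of probe position in these signals was not tested. The silent probes were Ppp3ca A_52_P513099, which lies 204639 bases upstream of the probe nearest the 3′ end, Ppp3cc A_51_P245412 and A_52_P408540 at 7078 and 5354 bases, and Ppp3r2 A_51_P136814 at 115 bases. Their signals were between -6.09 and -4.35 on all arrays, and the lowest signal called well above background was between -5.41 and -3.90 depending on the array. Each was lower in AngII+CsA in 4 of 4 pairs, and so were 59.4% of the 17141 probes on the array that were above background nowhere, whose median difference was -0.12. No difference is drawn from probes at background.

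**Figure D1:**
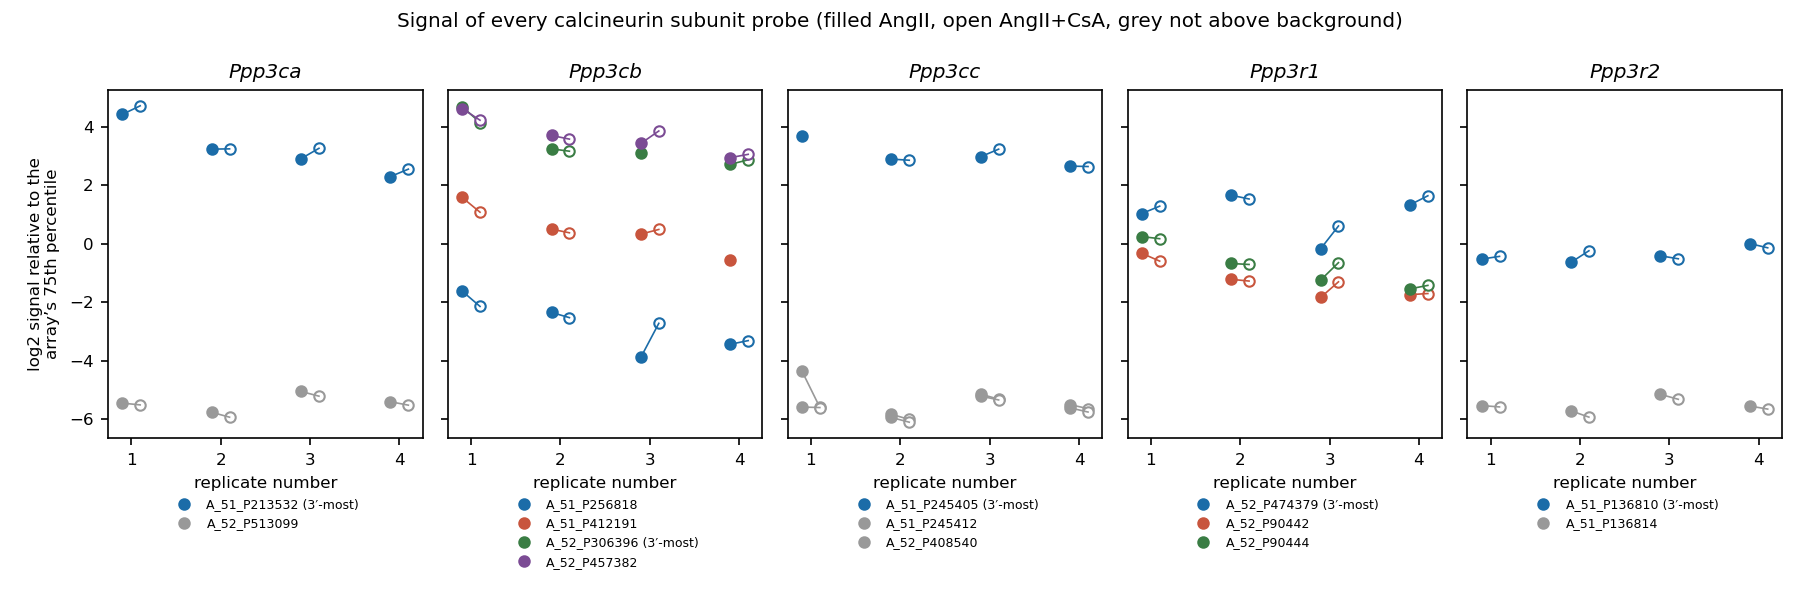
Log2 signal minus the 75th percentile of its array (vertical) of all 14 subunit probes by replicate number (horizontal), 1 panel a gene, with AngII filled and AngII+CsA open and a line joining arrays of the same number. Grey probes were above background on no array and stay near the bottom, and missing points are outlier spots. Replicate number separates the points of Ppp3ca and Ppp3cb further than treatment does.

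Ppp3ca encodes the alpha isoform of calcineurin A. Its probe A_51_P213532 (chr3:136729760-136729820, plus strand) read 4.42, 3.23, 2.91 and 2.30 in AngII replicates 1 to 4, and 4.71, 3.24, 3.26 and 2.55 in AngII+CsA replicates 1 to 4. Both arrays of replicate 1 were the highest and both of replicate 4 the lowest, and the groups overlapped over nearly their whole range. The means were 3.21 ± 0.89 in AngII and 3.44 ± 0.91 in AngII+CsA (SD, n = 4 each). Within replicate numbers the AngII+CsA array was higher in 4 of 4 pairs, by 0.29, 0.01, 0.35 and 0.25. The mean difference of 0.23 (1.17-fold) had a 95% interval of -0.04 to 0.49 in limma with the replicate block (adjusted p = 0.931), and on the groups alone limma gave an adjusted p of 1. The difference did not pass the test in either fit, and the interval with the block includes folds from 0.972 to 1.41. Without AngII replicate 4 or without AngII+CsA replicate 1, the difference on the groups alone turned to -0.08 and -0.20.

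Ppp3cb encodes the beta isoform of calcineurin A and has 4 probes, all tested. The brightest, A_52_P457382 (chr14:18164471-18164530, minus strand), read 4.62, 3.70, 3.43 and 2.94 in AngII replicates 1 to 4 and 4.22, 3.57, 3.85 and 3.05 in AngII+CsA replicates 1 to 4. Replicate 1 was again the highest and replicate 4 the lowest in each group, with full overlap between groups. Its difference was 0.00, with differences of -0.40, -0.13, 0.42 and 0.11 in the 4 pairs, so 2 pairs were higher and 2 lower. With the block limma gave an interval of -0.37 to 0.38 (adjusted p = 0.999), which leaves room for folds between 0.773 and 1.30.

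The probe of Ppp3cb nearest the 3′ end, A_52_P306396 (chr14:18156600-18156659), read 4.68, 3.24, 3.11 and 2.71 in AngII and 4.14, 3.16 and 2.87 in AngII+CsA replicates 1, 2 and 4. The spot of AngII+CsA replicate 3 was an outlier and was left out, so the group difference of -0.05 and the paired difference of -0.16 over 3 pairs do not rest on the same arrays. A_51_P412191, whose bases are shown above, read 1.58, 0.50, 0.33 and -0.55 in AngII and 1.08, 0.38 and 0.49 in AngII+CsA replicates 1 to 3. Here the left-out outlier was AngII+CsA replicate 4, the number at which AngII was lowest, and the difference was 0.18 on the groups alone and -0.16 over the 3 pairs. With outlier spots kept the differences of these probes were -0.04 and -0.09. Neither passed a test, with adjusted p-values from limma with the block of 0.944 and 0.941.

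The fourth Ppp3cb probe, A_51_P256818 (chr14:18172057-18172116), and the brightest, A_52_P457382, were each designed on a transcript record of their own. A_52_P457382 lies 7871 bases upstream of the probe nearest the 3′ end and has no reading frame free of stop codons. It stands for Ppp3cb in the ratios and nearest genes below. A_51_P256818 was dim, above background on 2 AngII and 3 AngII+CsA arrays. This dim probe read -1.62, -2.34, -3.87 and -3.43 in AngII and -2.14, -2.52, -2.72 and -3.31 in AngII+CsA. Its difference of 0.14 rested on replicate 3, which was higher by 1.16, whereas the other pairs gave -0.52, -0.18 and 0.12, and without AngII replicate 3 it was -0.21. The limma interval with the block ran from -0.50 to 0.79 (adjusted p = 0.962), the widest of the subunit probes.

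Ppp3cc encodes the gamma isoform of calcineurin A, the catalytic form of the testis. Its 1 tested probe, A_51_P245405 (chr14:64862426-64862485, minus strand), read 3.70, 2.89, 2.97 and 2.65 in AngII and 2.85, 3.23 and 2.64 in AngII+CsA replicates 2 to 4. The signal was well above background on all 7 arrays measured, and its groups overlapped. The spot of AngII+CsA replicate 1 was an outlier and was left out, and since AngII replicate 1 was the highest array, the difference was -0.15 on the groups alone and 0.07 over the 3 pairs (-0.04, 0.26 and -0.02). With outlier spots kept it was -0.11. limma with the block gave an interval of -0.28 to 0.41 (adjusted p = 0.966).

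Ppp3r1 encodes calcineurin B type 1, the widely expressed regulatory subunit, and its 3 probes did not show the same pattern over the arrays. A_52_P474379, the probe nearest the 3′ end (chr11:17152327-17152386, plus strand), read 1.03, 1.66, -0.17 and 1.33 in AngII and 1.28, 1.53, 0.61 and 1.64 in AngII+CsA. Both arrays of replicate 3 were the lowest of their group and replicate 1 was not the highest. The difference was 0.30 (1.23-fold), with pairs of 0.25, -0.13, 0.78 and 0.31, higher in 3 of 4. It did not pass, with an adjusted p of 1 by limma on the groups alone and of 0.931 with the block, where the interval was -0.09 to 0.69. Without AngII replicate 3 it was -0.08 on the groups alone.

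The other Ppp3r1 probes, which lie 7320 and 5692 bases upstream, moved together. A_52_P90442, which carries the EF-hand loop, read -0.32, -1.21, -1.83 and -1.74 in AngII and -0.59, -1.27, -1.30 and -1.70 in AngII+CsA, a difference of 0.06 with a block interval of -0.31 to 0.43. A_52_P90444 read 0.25, -0.67, -1.24 and -1.54 in AngII and 0.17, -0.71, -0.64 and -1.42 in AngII+CsA, a difference of 0.15 with a block interval of -0.20 to 0.50. In both, replicate 1 was the highest number and replicate 4 the lowest, 2 of 4 pairs were higher, and replicate 3 gave the largest rise within a pair (0.53 and 0.60). Their adjusted p-values from limma with the block were 0.971 and 0.933.

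Ppp3r2 encodes calcineurin B type 2, the regulatory form of the testis. Its tested probe A_51_P136810 (chr4:49694860-49694919, minus strand) read -0.52, -0.64, -0.41 and 0.01 in AngII and -0.43, -0.24, -0.51 and -0.14 in AngII+CsA. It was above background on all 8 arrays and varied little, with means of -0.39 ± 0.28 and -0.33 ± 0.17 (SD, n = 4 each). Its difference was 0.06, higher in 2 of 4 pairs, with a block interval of -0.25 to 0.37 (adjusted p = 0.967 by limma). The probe 115 bases upstream, shown above, was at background on every array. Of 6 other testis markers, Prm1, Prm2, Tnp1 and Tnp2, which package sperm DNA, were also above background on 8 arrays, Odf1 on 5 and the germ cell gene Ddx4 on none. The summed linear signal of the 5 markers tested lay between 4.20 and 5.20 times the array's 75th percentile in AngII and between 4.53 and 4.91 in AngII+CsA, and what these probes bind in these cells was not tested.

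**Figure D2:**
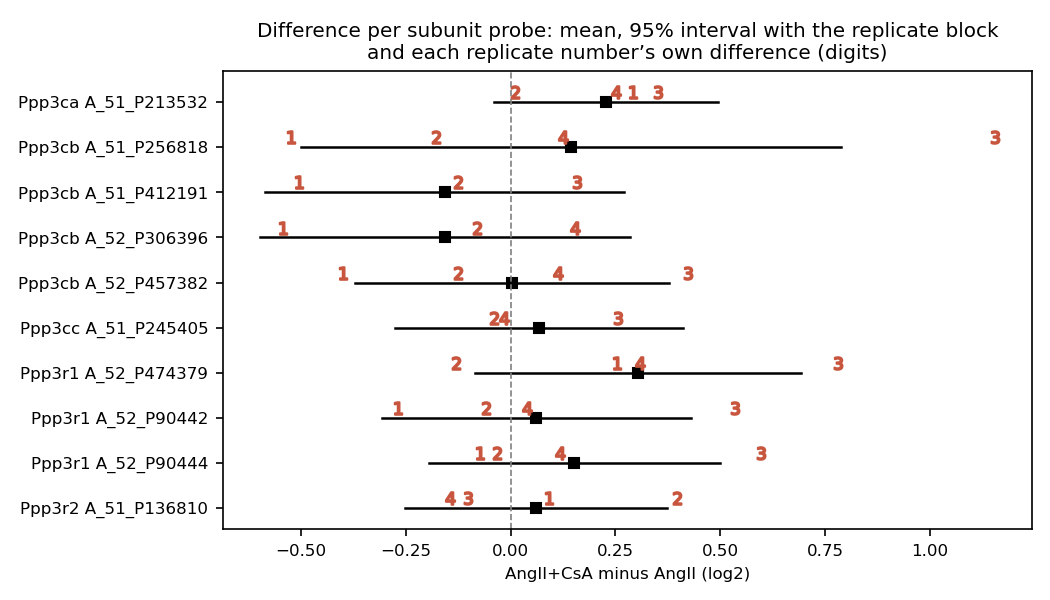
AngII+CsA minus AngII (log2, horizontal) for the 10 tested subunit probes, with the mean (square) and 95% interval (line) from limma with the replicate block and the difference of each replicate number (digit). Every interval includes 0, and replicate 3 is the rightmost digit for 8 of the 9 probes that have it.

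Across the subunits, 0 of 10 probes passed the threshold on the groups alone, as did 0% of all probes tested, and 0 of 10 passed with the block, where 0.0103% of all probes did. The counts at an unadjusted p under 0.05 were likewise 0 of 10 in both fits, beside 59 and 968 of the 19494 probes. No subunit probe had groups that did not overlap (0 of 10), and 0.513% of all tested probes had such groups. The differences were higher in AngII+CsA for 8 of 10 probes with a median of 0.10, whereas 47.1% of all tested probes were higher with a median of -0.01. With the block the median was 0.06, again with 8 of 10 higher, though Ppp3cc turned to higher and Ppp3cb A_51_P412191 to lower. With normexp correction Ppp3cb A_51_P256818 and the upstream Ppp3r1 probes turned to lower and Ppp3cb A_52_P306396 to higher. The count thus depended on the processing. The 10 subunit probes are not separate measurements, because several read the same gene and all share the same 8 arrays. The block intervals together ran from -0.60 to 0.79, that is from 0.661-fold to 1.73-fold, and a p that misses the threshold does not show that the levels were equal.

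The difference varied between the 4 replicate pairs. Pair 3 had the highest difference for 8 of the 9 probes measured in it, as it had for 32.4% of the 17782 array probes complete on all arrays. Pair 1 had the lowest for 6 of 9, all of them Ppp3cb or upstream Ppp3r1 probes, and for 39.0% of the array probes.

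For each tested subunit probe the range over replicate-number means was wider than the difference between the group means. These are unlike measures, since a range over 4 means tends to be the larger. For Ppp3ca the mean of replicate 1 was 4.56 and that of replicate 4 was 2.42, a range of 2.14 (4.41-fold) that exceeded the range of 93.9% of tested probes, whose median range was 0.926. The same order, highest in 1 and lowest in 4, held for 8 of the 10 subunit probes with ranges from 1.05 to 2.14, and for 20.7% of all tested probes. The size of the range depended on the processing for some of these: with normexp correction it was 0.36 for Ppp3cb A_51_P256818, 0.56 for Ppp3r1 A_52_P90442 and 0.84 for A_52_P90444, against 1.49, 1.26 and 1.69. For Ppp3cc, whose replicate 1 mean rests on 1 array, it was 1.05 and, with the deposited table, 0.617. The order highest in 1 and lowest in 4 included all tested catalytic probes and the upstream Ppp3r1 probes. Exceptions were Ppp3r1 A_52_P474379, highest in 2 and lowest in 3 with a range of 1.38, and Ppp3r2 A_51_P136810, whose range of 0.41 (1.33-fold) exceeded that of only 6.89% of tested probes. Slide and scan run with the replicate number and cannot be told apart from the culture.

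Signals of the catalytic probes followed each other over the arrays. Pearson's r between the 15 pairs of catalytic probes was 0.70 to 0.98 over 6 to 8 arrays, and the upstream Ppp3r1 probes correlated with the catalytic probes at 0.85 to 0.98. The Ppp3r1 probe A_52_P474379 did not follow them, at -0.35 to 0.40, nor did it follow the other probes of its own gene, at 0.20 and 0.06, which correlated with each other at 0.97. Ppp3r2 ran opposite, at -0.74 to -0.56 with the catalytic probes. These are descriptions of 8 arrays that share 4 replicate numbers, slides and scans, and they hold the scaling of each array in common.

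**Figure D3:**
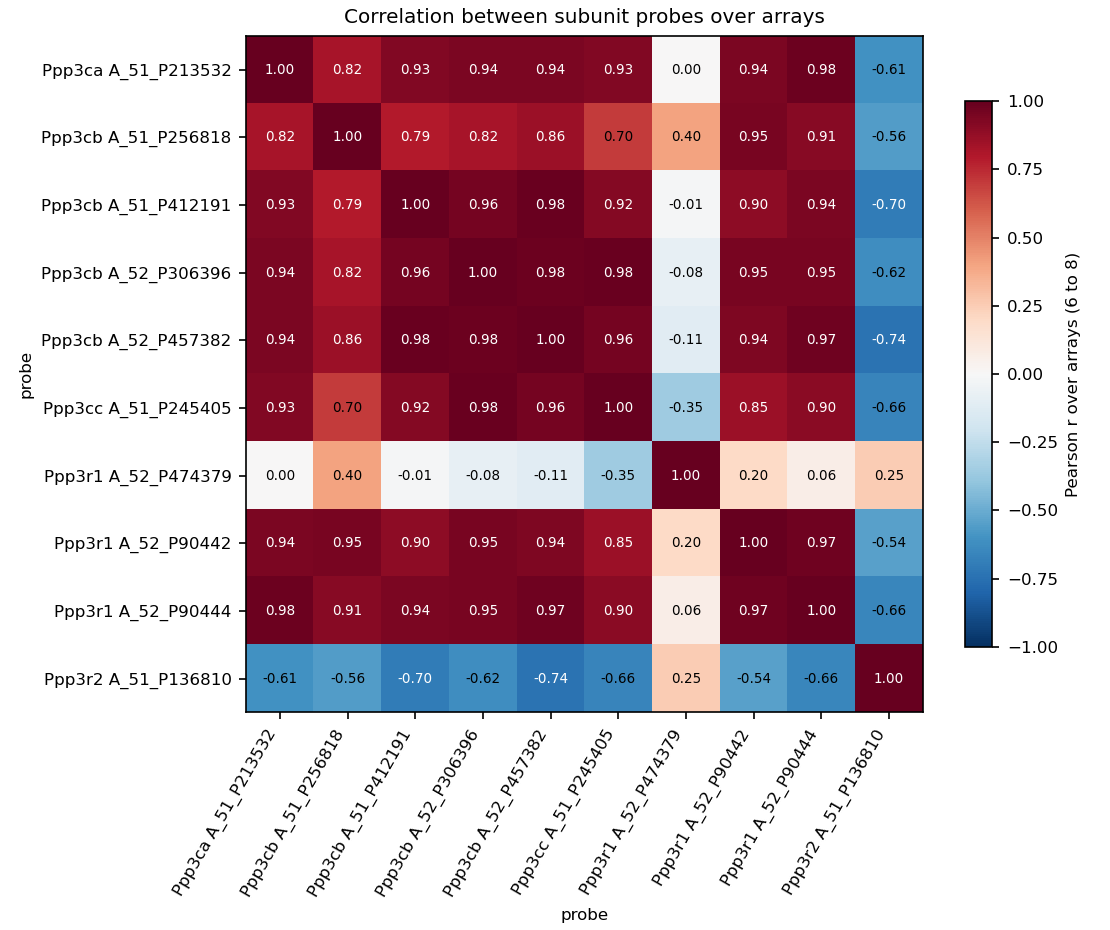
Pearson's r (colour and number) over 6 to 8 arrays between the 10 tested subunit probes, named on both axes. The catalytic probes and the upstream Ppp3r1 probes form a block of 0.70 to 0.98, while Ppp3r1 A_52_P474379 and Ppp3r2 stand outside it.

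The signals of different probes depend on how well each binds, so they do not give the order of abundance of the subunits. As a description of brightness within an array, the probe nearest the 3′ end stood between the 86.4 and 94.5 percentile of all probes for Ppp3ca, between 88.2 and 94.1 for Ppp3cb, and between 87.7 and 91.3 for Ppp3cc. It stood between 74.5 and 83.7 for Ppp3r1 and between 71.6 and 75.4 for Ppp3r2.

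Ratios within an array compare how treatment moved 2 subunits without setting 1 probe's level against another's. The log2 ratio between the brightest probes of each pair of genes gave 10 ratios, and 0 of them changed in 1 direction in all 4 pairs. The change in AngII+CsA ran from -0.30 for Ppp3cb over Ppp3r1, with pairs of -0.65, 0.00, -0.36 and -0.20, to 0.24 for Ppp3r1 over Ppp3r2, with pairs of 0.16, -0.53, 0.88 and 0.45. Each end of that range used Ppp3r1 A_52_P474379, whose difference of 0.30 exceeded those of the other Ppp3r1 probes (0.06 and 0.15). With A_52_P90444 in its place, Ppp3cb over Ppp3r1 changed by -0.15, lower in 4 of 4 pairs. Ppp3ca over Ppp3cb changed by 0.22, with pairs of 0.69, 0.13, -0.07 and 0.14. Ratios with Ppp3cc rest on 3 pairs, so they could not enter that count. Ppp3ca over Ppp3cc was higher in all 3 pairs, by 0.05, 0.10 and 0.27. With quantile normalization Ppp3cb over Ppp3r1 was lower in 4 of 4 pairs (mean -0.26), and with outlier spots kept Ppp3ca over Ppp3cc was higher in 4 of 4 (mean 0.34), as 1 of 10 ratios in each case.

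The genes whose brightest probe followed each subunit most closely over the arrays were Top1, Phf3 and Zfp281 for Ppp3ca, with r of 1.00 each to 2 decimals, and Apoo, Rap1b and Twf1 for Ppp3cb, also at 1.00. For Ppp3cc they were Rab9, Mpc1 and Bri3bp at 1.00 over 7 arrays, for Ppp3r1 Arhgef3, Drg1 and Olfr93 at 0.98, 0.97 and 0.97, and for Ppp3r2 Prss22, Olfr239 and Msx1 at 0.97, 0.97 and 0.95. Of the 10518 genes compared, 9.92%, 11.9% and 12.2% had r over 0.9 with Ppp3ca, Ppp3cb and Ppp3cc. The share was 0.856% with Ppp3r1, read by A_52_P474379, and 0.219% with Ppp3r2. That Ppp3r1 probe did not follow the other probes of its gene (r of 0.20 and 0.06), whose nearest genes were not sought. After the replicate-number means were removed the closest were Slfnl1, Mtrf1 and Add3 for Ppp3ca, Nlk, Nectin3 and Zbed3 for Ppp3cb, and Acer1, Stam and Cdip1 for Ppp3cc. For Ppp3r1 they included Sp4 and Xrn2, and for Ppp3r2 they were Mamdc4, Myo6 and Olfr1442. The arrays share only 4 replicate numbers, so such values are a description, with no test.

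Around the enzyme, only 1 gene of its partners passed a test. The partner list held regulators, anchors and immunophilins among others, of which 17 of 20 were on the array and 15 were tested. On the groups alone 6 were higher and 9 lower with a median of -0.09, beside 45.1% higher and a median of -0.02 over all 14855 genes. With the block Cabin1 and Chp1 turned from -0.12 and -0.13 to 0.16 and 0.12, so the lean toward lower partners depended on the fit. Rcan1, a calcineurin-binding inhibitor that is itself a known NFAT target, read 4.56, 4.47, 5.71 and 5.39 in AngII and 2.18, 2.35, 3.72 and 2.86 in AngII+CsA. All AngII arrays were above all AngII+CsA arrays. The means were 5.03 ± 0.61 and 2.78 ± 0.69 (SD, n = 4 each), and Rcan1 fell by 2.25 (4.77-fold lower) in limma with the block (adjusted p = 0.022), lower in 4 of 4 pairs. On the groups alone it did not pass (adjusted p of 1 by limma), and the call with the block was lost when any 1 replicate number was left out (adjusted p = 0.0734 to 0.486) or when dim probes were not filtered. The other tested partners had differences from -0.32 to 0.13 on the groups alone and from -0.32 (Calm2) to 0.16 (Cabin1) with the block. Among them were Rcan2 at 0.04, Rcan3 at 0.09 and Ppia, a cyclophilin that cyclosporin A binds, at 0.02.

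Among the substrates, 19 of 20 were on the array and 17 were tested, 9 higher and 8 lower with a median of 0.00, and 0 passed in either fit. The NFAT genes tested, Nfatc2, Nfatc3 and Nfatc4, gave 0.02, -0.02 and -0.10, while Nfatc1 was above background on 1 array. Among those with the smallest unadjusted p-values with the block were Mef2c, a muscle transcription factor, at -0.34, lower in 4 of 4 pairs, and Ppp1r1b, a phosphatase inhibitor, at -0.15, each with an adjusted p of 0.931 by limma. Of the 10 other catalytic genes of the phosphoprotein phosphatase family, 8 were tested and 0 passed. On the groups alone 1 was higher and 7 lower with a median of -0.07. That median was 0.07 with normexp correction and 0.06 without AngII replicate 1, but -0.04 with quantile normalization, so the lean depended on the setting. The smallest unadjusted p-values were those of Ppp1cb at -0.26, Ppp5c at 0.29 and Ppp1cc at -0.19, each with an adjusted p of 0.931 by limma with the block. The Ppp1cb probe was dim, above background on 4 of 8 arrays, with -3.05 ± 2.12 in AngII (SD, n = 4) and a lowest array at -5.18.

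**Figure D4:**
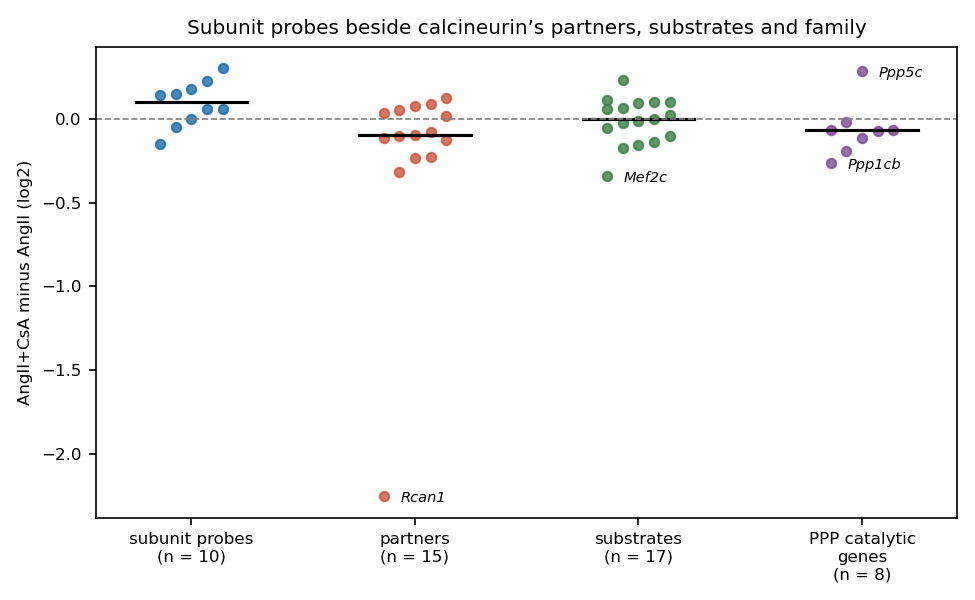
AngII+CsA minus AngII (log2, vertical, groups alone) for each tested subunit probe (n = 10), partner (n = 15), substrate (n = 17) and phosphoprotein phosphatase catalytic gene (n = 8), with the median as a bar. Rcan1 stands at -2.25, apart from the other points.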

How the data were processed

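Total RNA of 4 AngII and 4 AngII+CsA cultures was hybridised to 1-colour Agilent arrays. Per the file headers, the authors ran Agilent Feature Extraction, version 9.5.3.1, and the deposited files hold a background-subtracted intensity per spot beside its mean signal, local background and quality marks. A table of log2 values by the authors was also deposited and served as an alternative, with a median of 3.01 in every column and ranks that follow the same array's, and with its method and scale constant not given in the sources used here.

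From the intensities, log2 of the processed signal minus each array's 75th percentile was computed. Control and outlier spots were left out and spots of a probe were averaged. Where an outlier left a replicate number with 1 array, the block fit drops that pair. Probes well above background on at least 4 of 8 arrays were tested with limma 3.58.1 in R 4.3.3 (lmFit, eBayes), two-sided. Benjamini-Hochberg adjustment covered all 19494 probes, and list genes are given by their probe with the highest mean, as 1 of 14855 genes and transcripts. The script was tested on simulated data. A RefSeq table (GRCm38.p6) gave 22951 of the 41174 probes a symbol by accession, 6659 held a current symbol already and 11564 kept the files' name. Probe sequences and coordinates (mm7) come from the array files.

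The members and lists were chosen with earlier results of these data known. Every subunit probe is named, and of each list those past the threshold in either fit or else the 3 genes with the smallest unadjusted p with the block. The nearest genes are the 3 with the highest r among genes with a symbol that is not a RIKEN, Gm or LOC name, and some genes these rules name are not reported here. Rcan2, Rcan3, Ppia, the NFAT genes and the marker genes were named after their values were seen. Alternatives covered the replicate block (fixed and random), scaling, background correction, outlier spots, the dim-probe filter, 1 probe a gene, the variance model, the deposited table and leaving out each array.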

Additional observations from a re-analysis of the deposited data

How the results depend on the processing

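In 30 alternative settings 0 calcineurin subunit probes passed, with adjusted p-values of 0.17 or more. On the groups alone 0 probes of the array were called in any setting. With the replicate block 2 probes were called, and 8 with a random block. With the block and, chosen after seeing the data, normexp correction 3 were called, with median scaling 2, with quantile normalization 2, with outlier spots kept 2, with the authors' values 2, and with probes above background on all 8 arrays 4. Of the partner and substrate lists 1 gene was called in each of these settings, and 0 with no filter on dim probes or with any replicate number left out. The ratios of 1 sign numbered 1 of 10 with quantile normalization, 1 with outlier spots kept, 2 with the deposited table and 1 of 26 with every other tested probe. Where an outlier spot was left out, a ratio that lacked a pair could not be counted as of 1 sign.

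Directions of the subunit probes, none of them called, turned in some settings. Ppp3cb A_51_P412191 and Ppp3cc A_51_P245405 each lack 1 outlier spot, so their fits rest on unlike arrays. Leaving out the AngII array of the same number gave -0.157 and 0.067 on the groups alone, as the block did. The cause of the other turns was not tested. Ppp3cb A_51_P412191 turned to -0.157 with the block, -0.095 with the random block, -0.091 with outlier spots kept with or without the block, and -0.104 by the authors' values. Ppp3cc A_51_P245405 turned to 0.067 with the block and 0.028 with the random block. With normexp correction Ppp3cb A_51_P256818 turned to -0.17, A_52_P306396 to 0.12, and Ppp3r1 A_52_P90442 to -0.050 and A_52_P90444 to -0.0031, and with quantile normalization A_52_P306396 turned to 0.031.

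Leaving out 1 array on the groups alone, or 1 number in the block fit, gave ranges over both fits together of -0.20 to 0.63 for Ppp3ca, -0.24 to 0.32 for Ppp3cb A_52_P457382, -0.42 to 0.37 for A_52_P306396, -0.31 to 0.55 for A_51_P412191 and -0.21 to 0.54 for A_51_P256818. For Ppp3cc the range was -0.31 to 0.12, for Ppp3r1 A_52_P474379 -0.075 to 0.54, A_52_P90442 -0.15 to 0.38 and A_52_P90444 -0.12 to 0.50, and for Ppp3r2 -0.051 to 0.19. In the block fit alone the range was 0.185 to 0.30 for Ppp3ca, 0.14 to 0.45 for Ppp3r1 A_52_P474379 and 0.0037 to 0.23 for A_52_P90444, and for the other tested probes it included 0. The order of replicate numbers, highest in 1 and lowest in 4, held for the same 8 probes under median scaling, normexp correction and the deposited table, with A_52_P306396 lowest in 3 under quantile normalization.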
